A study of Nannospalax ehrenbergi and Mus musculus with 25 samples.

Results

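The subject here is how the change from uninjected muscle to chemically induced fibrosarcoma tissue differed between the blind mole rat Spalax and the mouse, measured by RNA-Seq. The members are the 10 of 25 libraries of the series that came from animals with a fibrosarcoma. They were taken by their labels and not by a cutoff on any measured value, with earlier results of these data known. In each animal 1 library came from the tumor on the injected side (IS) and 1 from the muscle of the uninjected side (UIS) of the neck. Spalax gave 2 animals and the mouse gave 3. All 5 animals had received a single injection of the carcinogen 3-methylcholanthrene (3MCA) under the skin on the left flank of the neck. The Spalax were caught in the wild, their age could only be estimated, over a range of years, and each received 1000 µg in 500 µl. Spalax 2240 was a female operated on after 18 months and Spalax 2230 a male operated on after 30 months. The mice were C57BL/6 males a few months old, received 200 µg in 200 µl, and were operated on after 14 weeks (mouse 1019), 12 weeks (mouse 1023) and 11 weeks (mouse 512). No group here was untreated, since the uninjected side belongs to the same tumor-bearing animals. Species, dose, age, time to the tumor, reference genome and count table changed together between both sets of animals and cannot be told apart. Sex was mixed in Spalax and male in all mice, so it was partly tied to species.

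3MCA is a polycyclic aromatic hydrocarbon that binds the aryl hydrocarbon receptor and is turned by cytochrome P450 enzymes into products that damage DNA. Injected into soft tissue, it gives rise to fibrosarcoma, a tumor of spindle-shaped mesenchymal cells that divide rapidly, lay down matrix and displace the muscle around them. Spalax is a long-lived subterranean rodent known for its tolerance of low oxygen and for rarely developing cancer, so that its few tumors can be set beside those of a susceptible species.

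The 10 libraries held 17025447 to 22033472 reads on genes in Spalax and 22143060 to 25934036 in the mouse. The unit throughout is the normalised count, the reads of a gene divided by a size factor of the library. Both tables were normalised separately. Normalised counts set side by side between species therefore carry any offset between the tables and are a description only. A value of 10 stood for 6.95 to 19.3 reads. 14769 gene symbols occurred in both tables, and 11085 of them reached a value of 10 in at least 2 Spalax and at least 3 mouse libraries and were tested. Sharing a symbol was taken as the match between species. Sarcomere genes, which mark skeletal muscle, summed to 81846 to 172731 reads per 1000000 reads on genes (RPM) in the 5 UIS libraries, so the uninjected side was muscle by its markers. In the IS they summed to 293 and 395 RPM in Spalax and to 1205, 2843 and 9566 in the mice 1019, 1023 and 512. Tpm1 and Tpm2, tropomyosins that other cell types also make, carried 84.8% and 93.9% of the sum in the Spalax tumors and 97.3%, 51.4% and 28.2% in the mouse tumors. Without these 2 genes the sums were 44.7 and 23.9 RPM in the Spalax tumors and 32.2, 1382 and 6868 in the mouse tumors, so the tumor of mouse 1019 lay between those of both Spalax, and the tumors of mice 1023 and 512 held more sarcomere RNA. In bulk tissue, fewer cells of a type and less RNA per cell cannot be told apart. Epidermal keratinocyte genes summed to 25.6 to 240.0 RPM in the Spalax libraries and to 2.45 to 19.4 RPM in the mouse libraries. The highest sum was in the tumor of Spalax 2230, against 66.5 RPM in its UIS. Of the 8 genes listed in both tables, 1 was high enough to test.

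The response of each species was taken as IS minus UIS on the log2(value + 1) scale, and the species difference as the Spalax response minus the mouse response. A positive difference means that the IS gained more, or lost less, over the UIS in Spalax than in the mouse. Both responses and their difference came from 1 limma fit over all 10 libraries, and a gene was called when its p, adjusted by Benjamini and Hochberg's method over the 11085 genes, was 0.05 or lower. Within Spalax, 1937 genes rose (17.5% of those tested) and 2182 fell (19.7%). Within the mouse, 2797 rose (25.2%) and 2726 fell (24.6%). The species difference was called for 438 genes (3.95%), of which 223 were positive (2.01%) and 215 negative (1.94%). Among the 438, the size of the difference ran from 1.13 to 12.68 on the log2 scale with a median of 2.99. Leaving out the UIS of Spalax 2230 or 2240 gave 1693 and 2285 Spalax calls, and leaving out both libraries of mouse 1023 gave 3070 mouse calls. For the species difference, 2390 genes had an unadjusted p below 0.05. Changes and differences below are fitted log2 values ± the standard error of the limma fit, values of single libraries follow the order 2230 and 2240 for Spalax and 1019, 1023 and 512 for the mice, and adjusted p are those of limma unless another tool is named.

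All 438 genes had per-animal changes that did not overlap between the 2 Spalax and the 3 mice, against 40.5% of all genes tested. This comes from the same values as the calls and adds no separate support. The IS and the UIS of an animal form a pair, and with the animal as a block 38 genes were called (0.343%), 19 in each direction, of which 35 were among the 438. Leaving out 1 UIS library of Spalax, that of 2230 or that of 2240, left 4 calls in either case. Without the UIS or the IS of mouse 1023 there were 54 and 104 calls, without the IS of mouse 512 there were 258, and without its UIS there were 778. The sign of the difference was kept by all 438 genes in each of these fits. They share most of their values, and the block leaves the estimate unchanged, so the kept sign is no separate support. When libraries were scaled by total reads, the median difference of all genes moved by -0.26, and 140 of 413 calls were positive (33.9%) in place of 223 of 438 (50.9%).

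**Figure D1:**
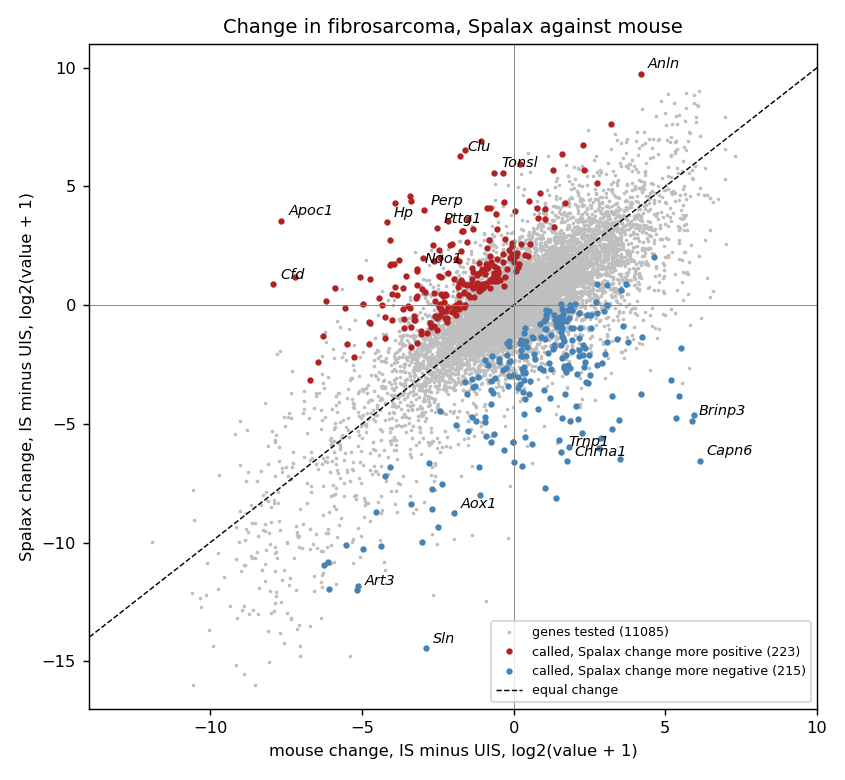
Change from UIS to IS in the mouse (x axis) and in Spalax (y axis), both on the log2(value + 1) scale, for the 11085 genes tested, with the 223 positive and 215 negative species differences in color and the line of equal change dashed. Most genes follow the diagonal, and the called genes lie away from it on both sides, in all quadrants.

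Most of the response ran the same way in both species. Across the 11085 genes the changes in Spalax and mouse had a Pearson correlation of 0.76, given as a description across genes, which share the same libraries and are not independent replicates, and 75.9% had the same sign. Of the genes called within a species, 2991 were called in both, which was 72.6% of the Spalax calls and 54.2% of the mouse calls. In 2897 of these (96.9%) the direction was shared, with 1323 rises and 1574 falls, and 60 of the 2897 also had a called species difference.

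The largest shared rises were in genes of cell division. Mki67, the proliferation marker, had 5.69 and 7.27 normalised counts in the UIS of Spalax 2230 and 2240 and 3859 and 3823 in their IS. In the mice 1019, 1023 and 512 it went from 404, 44.3 and 13.0 to 4120.0, 4024 and 4955. Every IS value lay above every UIS value in both species. Top2a, the DNA topoisomerase of dividing cells, rose by 6.30 ± 1.70 in Spalax and by 7.29 ± 1.39 in the mouse, and its difference of -0.99 ± 2.20 did not pass the test (adjusted p = 0.848). Melk, a mitotic kinase, Sgol1, a protector of centromeric cohesion, and Bub1, a kinase of the spindle checkpoint, rose by 6.59 to 7.91 in Spalax and by 6.13 to 6.97 in the mouse. Sgol1 had no read in either Spalax UIS library, and its value in the Spalax IS was at least 34.6-fold higher than a floor of 3 reads per library. Mouse 1019 had UIS values of 68.9 to 497 for Top2a, Melk, Sgol1 and Bub1, where the UIS of mice 1023 and 512 stayed between 0 and 19.6.

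The largest shared falls were in genes of the contractile and energy apparatus of muscle. Ckm, the muscle creatine kinase, had 500094 and 362314 in the UIS and 5.40 and 5.53 in the IS of Spalax. The mice went from 217703, 160986 and 338756 to 2.58, 1175 and 842. Mice 1023 and 512 kept far more Ckm in the tumor than mouse 1019 or either Spalax. Its difference of -5.46 ± 2.91 did not pass the test (adjusted p = 0.316). Atp2a1, the calcium pump of fast muscle, Ckmt2, the mitochondrial creatine kinase, Mylk2, the myosin light chain kinase of skeletal muscle, and Mybpc2, a myosin-binding protein, had changes of -12.70 to -12.12 in Spalax and of -10.59 to -10.13 in the mouse, all of them falls, with differences of -2.39 to -1.54 and adjusted p of 0.607 to 0.771.

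The 438 differences fell into classes by what each species did. In 44 genes Spalax rose and the mouse fell, out of 45 genes with that pair of calls. In 48 genes Spalax fell and the mouse rose, out of 49. Another 97 fell with a call in the mouse alone, 76 fell with a call in Spalax alone, 59 rose with a call in Spalax alone and 54 rose with a call in the mouse alone. A further 49 fell in both species by unequal amounts and 11 rose in both. With the calls within each species taken from the fit with the animal as a block, 24 of the 44 and 36 of the 48 opposed genes kept their class, and 5 of the 76 genes with a fall called in Spalax alone were in another one. None of the 4434 genes called in neither species had a called difference.

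Haptoglobin, Perp and Nqo1 were among the 44 genes that rose in the Spalax tumor and fell in the mouse tumor. Hp, haptoglobin, a plasma protein that binds free hemoglobin, had 1615 and 1614 in the Spalax UIS and 20235 and 16262 in the IS, while the mice went from 1937, 6995 and 724 to 224, 269 and 26.3. Both Spalax tumors lay above, and all 3 mouse tumors below, every UIS library of their species. The difference was 7.67 ± 1.53 (adjusted p = 0.0341). Perp, a membrane protein of desmosomes and a target of p53, had 42.6 and 47.3 in the Spalax UIS and 683 and 779 in the IS, against 50.8, 38.2 and 37.4 in the UIS and 8.27, 2.37 and 4.21 in the IS of the mice. The UIS values of both species were close to each other, and the IS values were far apart. The difference was 6.96 ± 0.77 (adjusted p = 0.00823). Nqo1, a quinone reductase that is induced through the aryl hydrocarbon receptor and Nrf2, had 229 and 201 in the Spalax UIS and 902 and 436 in the IS, and 492, 666 and 1231 in the UIS and 65.6, 85.4 and 93.7 in the IS of the mice. Within each species no IS value overlapped a UIS value. Its difference was 4.72 ± 0.65 (adjusted p = 0.0128).

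Pttg1, securin, which holds back the separation of sister chromatids, had 65.4 and 50.9 in the Spalax UIS and 478 and 635 in the IS. In the mice it was 1918, 2488 and 1453 in the UIS and 353, 333 and 301 in the IS. The 5 tumors came within 301 to 635, and it was the UIS that set the species apart. With 5.77 ± 0.43 (adjusted p = 0.00175), it had the smallest standard error of the 10 largest positive differences that were called with and without the animal block. Smpdl3a, a phosphodiesterase related to acid sphingomyelinase, had 428 and 399 in the Spalax UIS and 2521 and 941 in the IS, against 2440.3, 4148 and 5485 in the UIS and 342, 274 and 235 in the IS of the mice. No IS library overlapped the UIS of its species, and the difference was 5.66 ± 0.65 (adjusted p = 0.00823). Ric3, a chaperone of nicotinic acetylcholine receptors, and Elmod1, an activator of Arf GTPase activity, rose by 4.61 and 4.37 in Spalax and fell by 3.42 and 3.37 in the mouse. Elmod1 had 1 read over both Spalax UIS libraries against 159 in the IS, a ratio of 73.8 with an exact 95% interval of 13.0 to 2932 for counting error. With the animal as a block both calls were lost (adjusted p = 0.104 for Ric3 and 0.0675 for Elmod1), in ranges of 3.99e-05 to 0.209 and 3.04e-05 to 0.177 over all settings tried. The fall of Ric3 in the mouse had an adjusted p of 0.0515 with the block.

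The opposite pattern, a fall in the Spalax tumor and a rise in the mouse tumor, included the largest of the 438 differences. Capn6, a member of the calpain family without protease activity that is mostly expressed in the embryo, had 163 and 316 in the Spalax UIS and 0 and 4.92 in the IS. The mice went from 99.2, 9.28 and 25.9 to 759, 1556 and 8058. Every animal moved in the direction of its species, and the difference of -12.68 ± 1.76 was that largest one (adjusted p = 0.0132). Brinp3, a secreted protein of the nervous system that is induced by BMP and retinoic acid, went from 146 and 171 to 5.40 and 3.69 in Spalax and from 117, 4.13 and 4.32 to 407, 1473 and 1071 in the mice. Mouse 1019 started from a high UIS value and had the smallest rise, and the fall in Spalax had an adjusted p of 0.0509 with the block. Gcnt4, a glycosyltransferase that branches O-linked glycans, and Irx1, an Iroquois homeobox transcription factor, had differences of -10.56 ± 1.74 and -10.09 ± 2.08, with 128 and 152 (Gcnt4) and 132 and 133 (Irx1) in the Spalax UIS and at most 10.5 in the Spalax IS. Fam189a1 had no read in the Spalax IS, so its fall was at least 7.17-fold against the floor of 3 reads per library, and it had 3 reads over the 3 mouse UIS libraries against 546 in the IS, a ratio of 82.1 (28.0 to 399.5). The block left none of these 5 calls in place, with adjusted p of 0.0518 for Capn6, 0.0777 for Brinp3, 0.0648 for Gcnt4, 0.0675 for Irx1 and 0.0648 for Fam189a1, and over all settings the p ran within 4.1e-10 to 0.126, 1.88e-06 to 0.173, 2.52e-08 to 0.174, 2.21e-05 to 0.24 and 2.83e-06 to 0.174 in that order.

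Ass1, Trnp1 and Cacnb2 moved in the same opposed way and were called with the block too. Ass1, argininosuccinate synthase, the enzyme that lets a cell make its own arginine, had 179 and 149 in the Spalax UIS and 3.60 and 6.76 in the IS, while the mice went from 238, 315 and 173 to 994, 2526 and 433. The UIS values of both species lay within 149 to 315, and the tumors were far apart. The difference was -6.91 ± 0.95 (adjusted p = 0.0128). Trnp1, a nuclear protein that acts in neural progenitor cells, had 1901 and 1463 in the Spalax UIS and 37.8 and 12.9 in the IS, against 23.0, 11.3 and 14.4 in the UIS and 46.5, 48.6 and 50 in the IS of the mice. Here it was the UIS that differed most between both tables, and the tumors came near each other. The difference was -7.74 ± 0.78 (adjusted p = 0.00728). Cacnb2, a subunit of voltage-gated calcium channels, fell from 215 and 149 to 3.00 and 2.46 in Spalax and rose from 43.5, 21.7 and 5.76 to 150.4, 297 and 57.9 in the mice. The mouse UIS and IS did not overlap across animals, with 43.5 as the highest UIS value and 57.9 as the lowest IS value. The difference was -8.46 ± 1.28 (adjusted p = 0.0171).

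**Figure D2:**
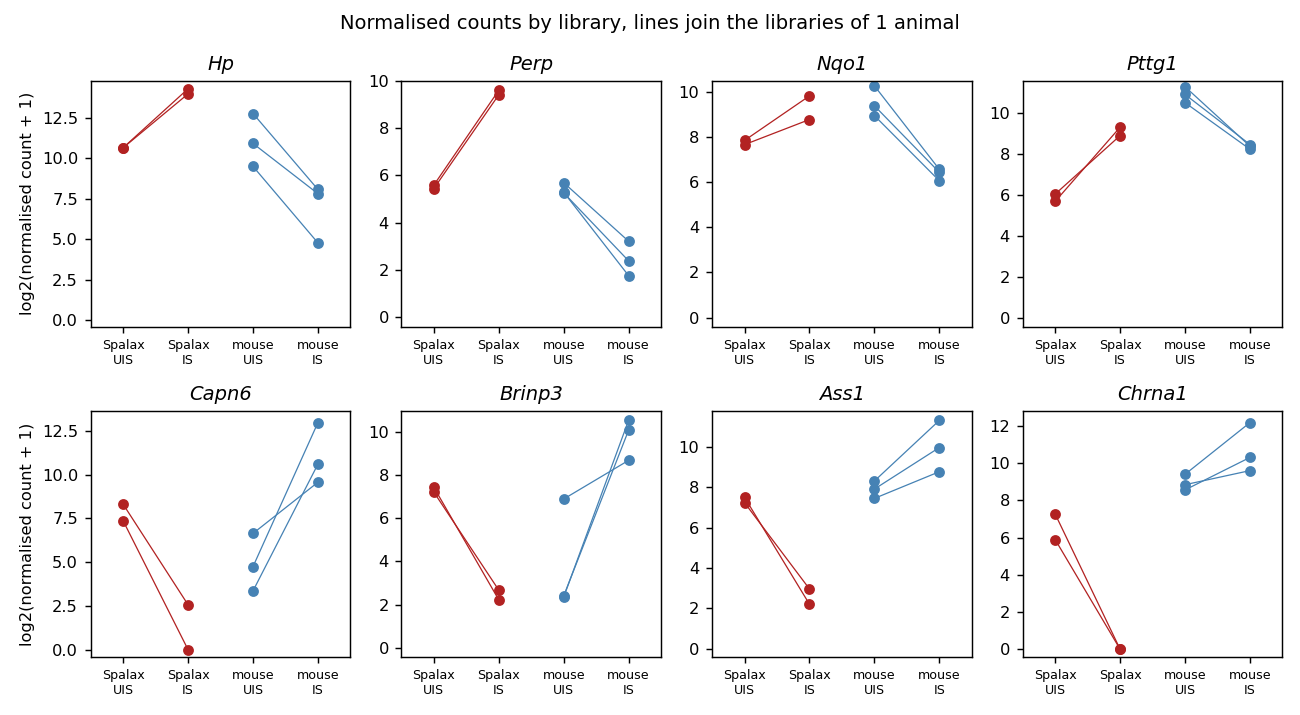
Normalised counts on the log2(value + 1) scale for 8 genes with opposed changes, in the UIS and IS of the 2 Spalax (red) and 3 mice (blue), with a line for each animal. The lines of Hp, Perp, Nqo1 and Pttg1 rise in Spalax and fall in the mice, and those of Capn6, Brinp3, Ass1 and Chrna1 fall in Spalax and rise in the mice.

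Clu and Tonsl rose in Spalax with no call in the mouse. Clu, clusterin, a secreted chaperone that is induced by stress, had 756 and 684 in the Spalax UIS and 26409 and 118451 in the IS, and 1151, 1328 and 608 in the UIS and 300.3, 817 and 96.3 in the IS of the mice. Clu in the tumor of Spalax 2240 was the highest of the 10 libraries. The difference was 8.04 ± 1.23 (adjusted p = 0.0177), made of 6.28 ± 0.96 in Spalax and -1.76 ± 0.78 in the mouse. The mouse fall was called with the animal as a block (adjusted p = 0.037). Tonsl, a scaffold protein that helps to repair stalled replication forks, had 8.53 and 17.0 in the Spalax UIS and 668 and 577 in the IS, while the mice had 1143, 1412 and 978 in the UIS and 898, 734 and 613 in the IS. The 2 Spalax UIS libraries stood apart from the other 8, which lay within 577 to 1412. Its difference was 6.22 ± 0.49 (adjusted p = 0.002). Steap4, a metalloreductase induced in inflammation, rose from 11.4 and 57.0 to 3223 and 1962 in Spalax and had 896, 1768 and 1057 in the mouse UIS and 525, 1133 and 97.4 in the mouse IS. Each of the 3 mice had less in its tumor than in its UIS. The difference was 8.17 ± 1.39 (adjusted p = 0.0238, and 0.0576 with the animal as a block, in a range of 1.28e-06 to 0.189 over all settings).

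Cfd, Pxmp2, Hr and Apoc1 fell in the mouse tumor, with no call in Spalax. Cfd, complement factor D or adipsin, which fat cells secrete, had 515 and 464 in the Spalax UIS and 745 and 1075 in the IS, against 2133, 10980.5 and 3212 in the UIS and 32.6, 19.0 and 6.84 in the IS of the mice. Both Spalax had more in the tumor and all 3 mice had far less. The difference was 8.79 ± 1.06 (adjusted p = 0.00823). Summed white fat markers stood at 2165 and 1149 RPM in the Spalax UIS and at 6157, 10613 and 4279 in the mouse UIS, against 361 to 699 in the 5 tumors. Single markers in the UIS of mouse 512 were mixed. Adipoq (606) and Plin1 (107) lay below both Spalax UIS libraries (1346 and 616, 374 and 125). Cidec (785) lay above both (469 and 78.8), and Plin4 (51735) was the largest member of that sum. The part of the fat content of the UIS in the difference of Cfd was not tested. Pxmp2, a channel protein of the peroxisomal membrane, had 22.7 and 29.1 in the Spalax UIS and 56.4 and 33.2 in the IS, and went from 679.6, 918 and 631 to 12.4, 13.0 and 8.95 in the mice. Spalax was low on both sides. The difference was 6.62 ± 0.64 (adjusted p = 0.00657). Hr, the nuclear corepressor hairless, fell from 619, 408 and 1755 to 9.82, 20.2 and 52.1 in the mice and had 135 and 81.2 in the Spalax UIS and 519 and 111 in the IS, with a difference of 6.24 ± 1.28 (adjusted p = 0.0366).

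Apoc1, an apolipoprotein made by macrophages and liver, went from 1125, 4243 and 64.8 to 10.3, 1.19 and 0.526 in the mice and from 8.53 and 12.1 to 83.4 and 205 in Spalax. At 11.22 ± 2.22 it had the largest positive difference of the 438 (adjusted p = 0.0341). Wfdc1, a secreted protein with a protease-inhibitor fold, went from 1030.3, 496 and 608 to 0.517, 10.1 and 4.74 in the mice, and in Spalax it had 56.9 and 15.8 in the UIS and 27.6 and 172 in the IS. Spalax 2230 had less in the tumor and Spalax 2240 had more. Its difference was 8.38 ± 1.47 (adjusted p = 0.0253). Both calls were lost with the block (adjusted p = 0.0612 for Apoc1 and 0.0871 for Wfdc1, in ranges of 1.88e-08 to 0.216 and 2.06e-07 to 0.182 over all settings).

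Chrna1, Sntb1, Thbs4 and Dkk2 fell in Spalax and had no call in the mouse. With the animal as a block their mouse changes were called as rises (adjusted p = 0.0334, 0.0213, 0.0252 and 0.0119), so that the direction was then opposed in both species. Chrna1, the alpha subunit of the muscle acetylcholine receptor, had 152 and 58.2 in the Spalax UIS and no read in either Spalax tumor, so its fall was at least 57.7-fold against the floor of 3 reads per library. The mice had 457, 376 and 674 in the UIS and 773, 1264 and 4628 in the IS. All 3 mouse tumors were above the mouse UIS, with a change of 1.76 ± 0.66 (adjusted p = 0.0517). The fitted difference was -8.33 ± 1.04 (adjusted p = 0.00981). Sntb1, a syntrophin of the dystrophin complex, went from 576 and 473 to 4.80 and 25.8 in Spalax and had 20.6, 13.4 and 153 in the mouse UIS and 110.1, 81.9 and 549 in the IS. Each mouse gained and each Spalax lost Sntb1, and the difference was -7.63 ± 1.67 (adjusted p = 0.0439). Thbs4, a thrombospondin of the matrix of muscle and tendon, had 3009.6 and 5337 in the Spalax UIS and 60.6 and 293 in the IS, and 148, 389.8 and 271 in the UIS and 214, 1849 and 1879 in the IS of the mice. The difference was -6.75 ± 1.42 (adjusted p = 0.0387). Without the IS of mouse 512, the adjusted p was 0.0641 for Sntb1 and 0.0648 for Thbs4. The tumors of mice 1023 and 512 held more sarcomere RNA than those of mouse 1019 and both Spalax, and the part of retained muscle in these differences was not tested.

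Dkk2, a secreted modulator of Wnt signalling, had 114 and 113 in the Spalax UIS and 0 and 0.615 in the IS, 173 reads against 1, a ratio of 373 with an exact 95% interval of 66.1 to 14813 for counting error. The mice had 1195, 133 and 48.9 in the UIS and 4271, 7399 and 367 in the IS. Every mouse gained Dkk2, by 1.84 to 5.79 on the log2 scale, and the difference was -9.99 ± 2.07 (adjusted p = 0.038). Sln, sarcolipin, which inhibits the calcium pump of muscle, had 31376 and 25592 in the Spalax UIS and 0.600 and 0 in the IS. In the mice it was already low in the UIS, at 236, 146 and 107, and it was 0, 69.4 and 128 in the IS. Mouse 512 had slightly more Sln in its tumor than in its muscle, unlike the other 4 animals. Ankrd1, an ankyrin repeat protein of stressed muscle, fell from 1925 and 2164 to 1.20 and 42.4 in Spalax, and the mice had 704, 338 and 940.1 in the UIS and 1222, 358 and 4441 in the IS. The differences were -11.56 ± 2.42 for Sln (adjusted p = 0.0387) and -8.75 ± 1.81 for Ankrd1 (adjusted p = 0.038). With the block these became 0.0877 and 0.0582, in ranges of 5.76e-08 to 0.235 and 2.72e-05 to 0.198 over all settings.

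Aox1, Art3 and Camk2b fell in both species, and further in Spalax. Aox1, aldehyde oxidase, a detoxifying molybdenum enzyme, went from 7498 and 8255 to 15.6 and 19.1 in Spalax and from 1709, 2024 and 1183 to 533, 347 and 372 in the mice. Its difference of -6.79 ± 0.43 had the smallest adjusted p of all genes (0.000986). Art3, of the ADP-ribosyltransferase family, had 3937 and 4235 in the Spalax UIS and no read in the IS, at least 2243-fold lower than the UIS against the floor of 3 reads per library, and it went from 3599, 5911 and 11199 to 89.4, 384 and 151 in the mice. All 3 mouse tumors kept Art3. The fitted difference was -6.84 ± 0.88 (adjusted p = 0.0103) on the log2(value + 1) scale and moved to -10.42 with edgeR. Camk2b, a calcium/calmodulin-dependent kinase, had 4409 and 4752 in the Spalax UIS and 0.600 and 0 in the IS, 7021 reads against 1, and went from 4611, 2544 and 5628 to 84.2, 71.2 and 254 in the mice. The difference was -6.70 ± 0.82 (adjusted p = 0.00844).

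**Figure D3:**
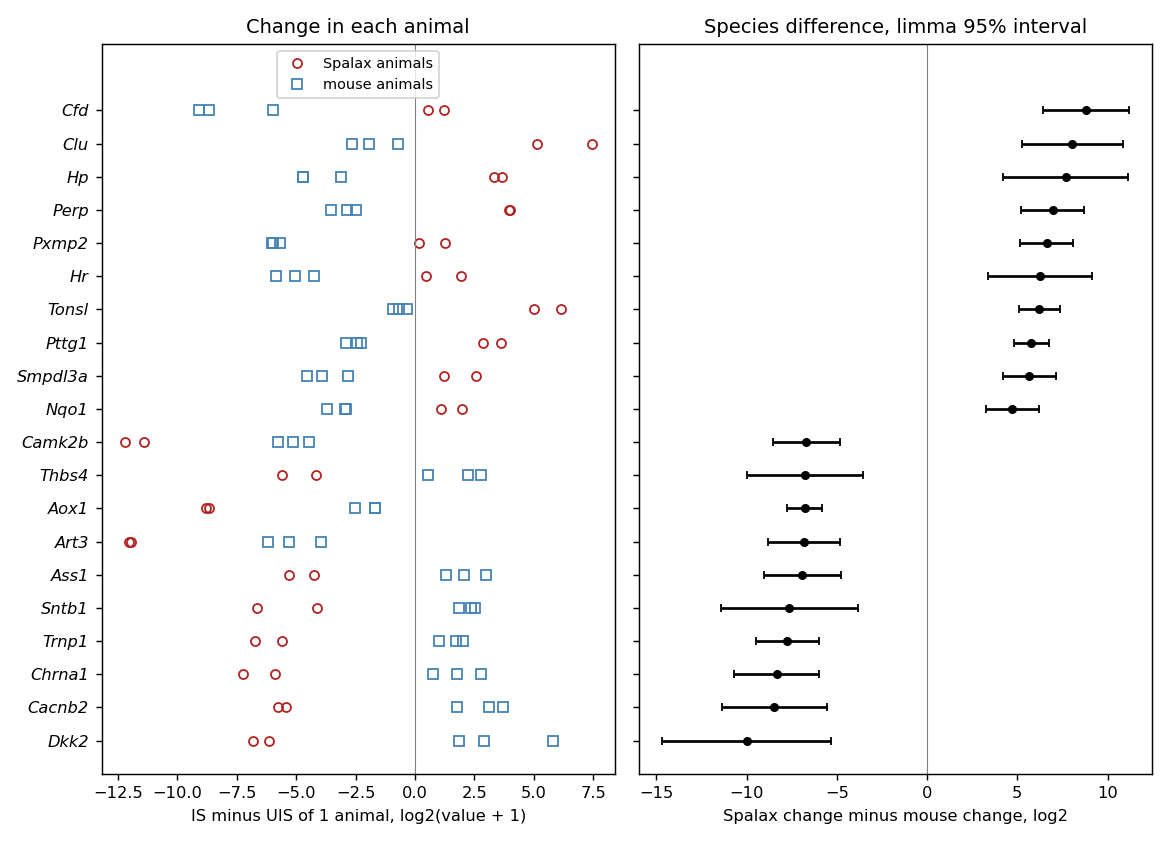
The 10 largest positive and 10 largest negative species differences among genes called with and without the animal block. At left each symbol is the change from UIS to IS in 1 animal (circles 2 Spalax, squares 3 mice, log2(value + 1) scale). At right the limma difference has its 95% interval. That the intervals exclude 0 for all 20 genes follows from choosing called genes.

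The gene lists described next were counted against the 3.95% of all genes called, a median difference of -0.02 over all genes, and the rates of rise and fall given above. Skeletal muscle genes were lower in the tumor in both species, and the fitted fall was larger in Spalax. Of the 25 sarcomere genes tested, 25 fell in Spalax and 22 in the mouse, with median changes of -12.86 and -7.76. The difference was below 0 for all 25 with a median of -5.41, and for none was it called (lowest adjusted p = 0.0828). Without Tpm1 and Tpm2 the median difference was -5.46. The count of calls depended on mouse 1019, whose tumor was as low in the sarcomere genes other than Tpm1 and Tpm2 as those of Spalax. Without its IS library 14 of the 25 differences were called, with a median of -7.35, and without both libraries of mouse 512 none was called, with a median of -3.23. Genes of muscle calcium handling had 14 falls in Spalax and 12 in the mouse among 15 tested, a median difference of -4.25, or -4.14 with the gene that had a group at 0 held at its floor, and Sln as the 1 call. They summed to 365 RPM in the tumor of mouse 1019 and to 721 and 2271 in those of mice 1023 and 512, against 489 and 444 in Spalax. Atp2a2 alone had 5894 and 5826 of summed normalised counts of 6334 and 6007 in the Spalax tumors. In the mouse tumors it had 4153 of 4648, 6032 of 10161 and 7081 of 30995. The sums of Spalax and mouse 1019 thus mostly followed that gene. Without the IS of mouse 1019 there were 9 calls. Regulators of myogenesis and of the immature muscle fiber had 10 falls in Spalax and 5 in the mouse among 16 tested. Their median difference was -3.24, or -2.49 with the 5 genes that had a group at 0 held at the floor, and Chrna1 and Ankrd1 were called.

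The tumor of mouse 512 stood apart in the myogenic list. The list summed to 3589 RPM in that tumor, above the 721 RPM of its own UIS, and to 244 and 183 RPM in the tumors of mice 1019 and 1023, against 23.8 and 72.4 RPM in Spalax. In the tumor of mouse 1019 Ankrd1, Mef2c and Chrna1 had 1222, 891 and 773 of summed normalised counts of 3106. In that of mouse 1023 they had 358, 597 and 1264 of 2573. Mef2c had 214 of 309 and 576 of 981 in the Spalax tumors. Myog, myogenin, a transcription factor of muscle differentiation, had 10921 normalised counts in the tumor of mouse 512 and 1.03 and 16.0 in those of mice 1019 and 1023. Myod1, the factor that commits cells to the muscle lineage, had 2831 against 0.517 and 6.52, and Pax7, of muscle stem cells, had 1755 against 0 and 0.593. Myog was at 0 and Myod1 and Pax7 at 0 to 0.615 in the Spalax tumors. Without the IS of mouse 512, 15 of the 16 genes fell in Spalax and 13 in the mouse, and the median difference was -1.15. Without it Chrna1 had a difference of -7.59 (adjusted p = 0.0139) and Ankrd1 one of -7.83 (adjusted p = 0.0539). The sums and counts of the muscle lists without Tpm1 and Tpm2 or without single libraries were chosen after seeing the data.

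Most cell cycle genes rose in both species. All 29 genes were tested, 26 rose in Spalax and 29 in the mouse, with median changes of 5.19 and 4.47 and a median difference of 0.90. Anln, anillin, a scaffold of the cleavage furrow, had 4.26 and 1.21 in the Spalax UIS and 2526 and 3393 in the IS, and went from 319, 46.4 and 149.7 to 2350.2, 2909 and 2058 in the mice. The 5 tumors lay within 2058 to 3393, and Spalax had far less in the UIS than the mice. Its difference was 5.55 ± 1.02 (adjusted p = 0.0287). Kif20a, a mitotic kinesin, had 367 and 433 in the Spalax UIS and 1777 and 1488 in the IS, and 39.9, 20.6 and 20.2 in the UIS and 530.3, 710.0 and 742 in the IS of the mice. The mouse UIS was the low group here, and the difference was -2.60 ± 0.52 (adjusted p = 0.0341). In the mouse gene models 29.3% of the exon bases of Kif20a lie under a gene on the opposite strand. With the block the adjusted p was 0.0777 for Anln and 0.109 for Kif20a, in ranges of 1.15e-05 to 0.204 and 2.99e-05 to 0.25 over all settings.

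Of 17 tested genes of the p53 pathway and of inhibitors of cyclin-dependent kinases, 3 had a called difference. Cdkn2c, the CDK4 and CDK6 inhibitor p18, rose from 109 and 66.7 to 1664 and 719 in Spalax and had 430.5, 441 and 504 in the mouse UIS and 688, 1068 and 686 in the IS, a difference of 2.87 ± 0.58 (adjusted p = 0.0341). Phlda3, a p53 target that restrains Akt, had 649.7 and 708 in the Spalax UIS and 446 and 561 in the IS, and fell from 3630.2, 3537 and 5983 to 357, 331 and 722 in the mice. The IS values of both species overlapped and the mouse UIS values were the highest. Its difference was 2.83 ± 0.54 (adjusted p = 0.0317), and it was also called with the block. Zmat3, an RNA-binding p53 target, went from 1164 and 1182 to 579 and 373 in Spalax and from 357, 235 and 325 to 501, 650.1 and 549.5 in the mice. It fell in Spalax and rose in the mouse, with a difference of -2.24 ± 0.42 (adjusted p = 0.0299). Under the block Cdkn2c and Zmat3 had adjusted p of 0.0648 and 0.0938, in ranges of 0.000121 to 0.169 and 4.68e-05 to 0.198 over all settings. The median difference of the list was 0.20, with 9 genes above 0 and 8 below.

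Most collagen genes rose in the tumors of both species. Of 18 tested, 12 rose in Spalax and 16 in the mouse, with medians of 2.91 and 4.34. The difference was below 0 for 16 of 18, with a median of -1.04, and was called for none (lowest adjusted p = 0.139). Matrix remodeling genes had 20 rises in Spalax and 25 in the mouse among 34, a median difference of 0.41, or 0.09 with 1 gene at its floor, and no call. The small leucine-rich proteoglycans, which organise collagen fibrils, had 1 rise and 1 fall in Spalax and 1 rise in the mouse among 9 tested, with no called difference.

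The list made for Wnt antagonists had 2 calls among 8 tested and a median difference of 0.28. Its call above 0 was Wfdc1, a protein with a protease-inhibitor fold rather than a known Wnt antagonist, and its call below 0 was Dkk2. Growth and oncofetal genes, which are active in the embryo and often return in tumors, had 6 rises in the mouse and none in Spalax among 14 tested. Their differences were below 0 for 13 of 14, with a median of -2.40 and a range of -12.68 to 3.59, and Capn6 was the 1 call.

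In the interferon pathway 14 genes rose in Spalax and 13 in the mouse among 23 tested, with a median difference of 0.61. Jak2, a kinase of the interferon gamma receptor and of cytokine receptors, had 270.1 and 447 in the Spalax UIS and 3242 and 1735 in the IS, and 1495, 1292 and 1766 in the UIS and 1846, 1409 and 746 in the IS of the mice. Both Spalax gained Jak2, while mice 1019 and 1023 gained slightly and mouse 512 lost some. The difference was 3.04 ± 0.61 (adjusted p = 0.0349, and 0.103 with the block, in a range of 0.000418 to 0.253). Of the Toll-like receptor and interleukin 1 genes, 12 rose in Spalax and 14 in the mouse among 19, with a median difference of 0.53 and no call. Chemokines had 3 rises in each species and 1 fall in the mouse among 11 tested, and no call. Complement genes had 2 rises in Spalax and 6 in the mouse among 10 tested, with Cfd called.

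Markers of the other cell types a tumor sample can hold gave 1 called difference, beside that of Cfd. Macrophage markers had 4 rises in Spalax and 11 in the mouse among 15, median changes of 3.24 and 3.07, and Apoc1 as the 1 call. Lymphocyte markers had 2 rises in each species among 9 tested and no call. Endothelial markers had 1 fall in Spalax and 6 in the mouse among 12, a median difference of 0.35 and no call. The macrophage sum ran from 2320 to 8435 RPM in the Spalax tumors and from 1568 to 8491 in the mouse tumors, so the tumors of both species overlapped. Smooth muscle markers had 5 falls in each species and 1 rise in the mouse among 9, and Schwann cell and nerve markers had 4 falls in each among 9, with no call in either list. Brown fat markers had 1 rise and 3 falls in Spalax and 4 falls in the mouse among 9, with no call.

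**Figure D4:**
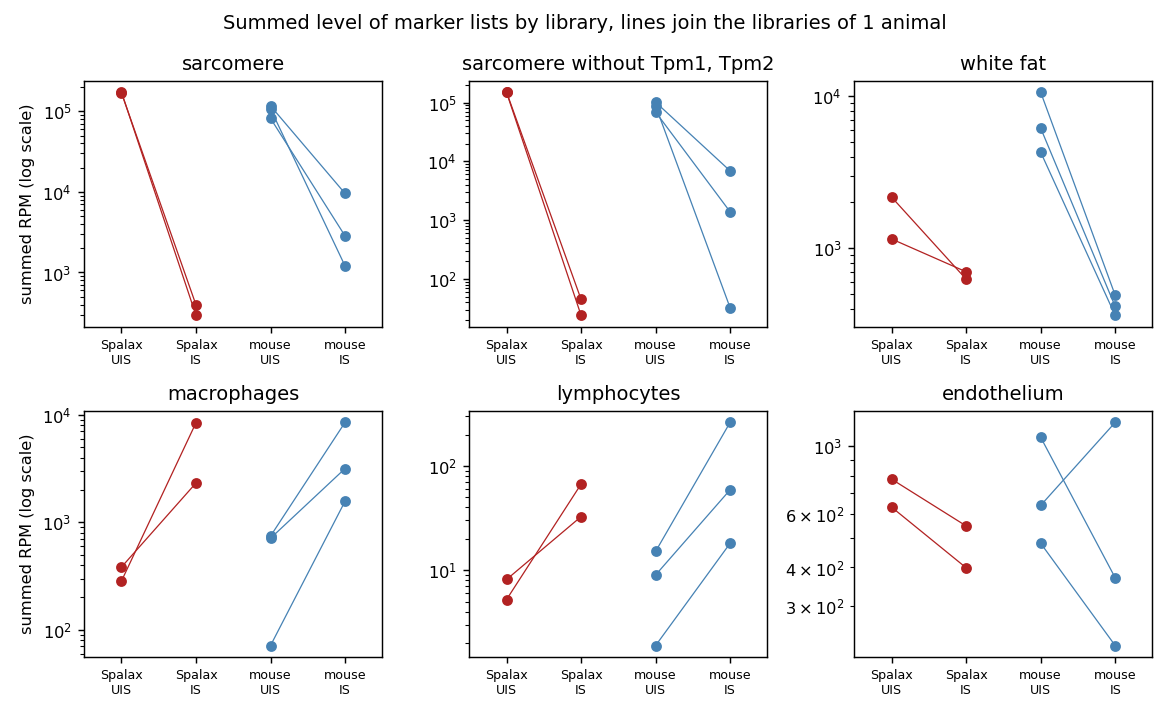
Summed RPM (reads per 1000000 reads on genes) of 5 marker lists, and of the sarcomere list without Tpm1 and Tpm2, in the 10 libraries (log scale), with a line joining the UIS and IS of each animal (red Spalax, blue mouse). Without Tpm1 and Tpm2 the sarcomere sum was 44.7 and 23.9 RPM in the Spalax tumors, 32.2 in the tumor of mouse 1019 and 1382 and 6868 in those of mice 1023 and 512. The white fat sum started higher in the mouse UIS.

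White fat genes had 10 falls in Spalax and 13 in the mouse among 17, median changes of -3.17 and -5.69 and a median difference of 0.63, with Cfd called. Most citrate cycle genes fell in both species, with 21 falls in Spalax and 20 in the mouse among 23 tested and a median difference of 0.20. Ogdh, a subunit of the 2-oxoglutarate dehydrogenase of that cycle, fell from 7088 and 5606 to 2114 and 1673 in Spalax and from 19075, 19163 and 21769 to 1801, 2034 and 1919 in the mice. The 5 tumors lay within 1673 to 2114, and the mouse UIS was above the Spalax UIS. The difference was 1.64 ± 0.32 (adjusted p = 0.0335, and 0.101 with the block, in a range of 9.46e-07 to 0.189). Glycolysis genes had 6 rises and 8 falls in Spalax and 4 rises and 10 falls in the mouse among 21, with a median difference of 0.91 and no call. Of 23 genes of hypoxia and mTOR signalling, 3 rose and 5 fell in Spalax and 3 rose and 6 fell in the mouse, and none was called. Immediate early genes had 4 rises and 1 fall in each species among 14 and no call. Of 4 tested genes of the aryl hydrocarbon receptor pathway, through which 3MCA acts, 2 rose in Spalax, 1 fell in the mouse, and Nqo1 was called.

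**Figure D5:**
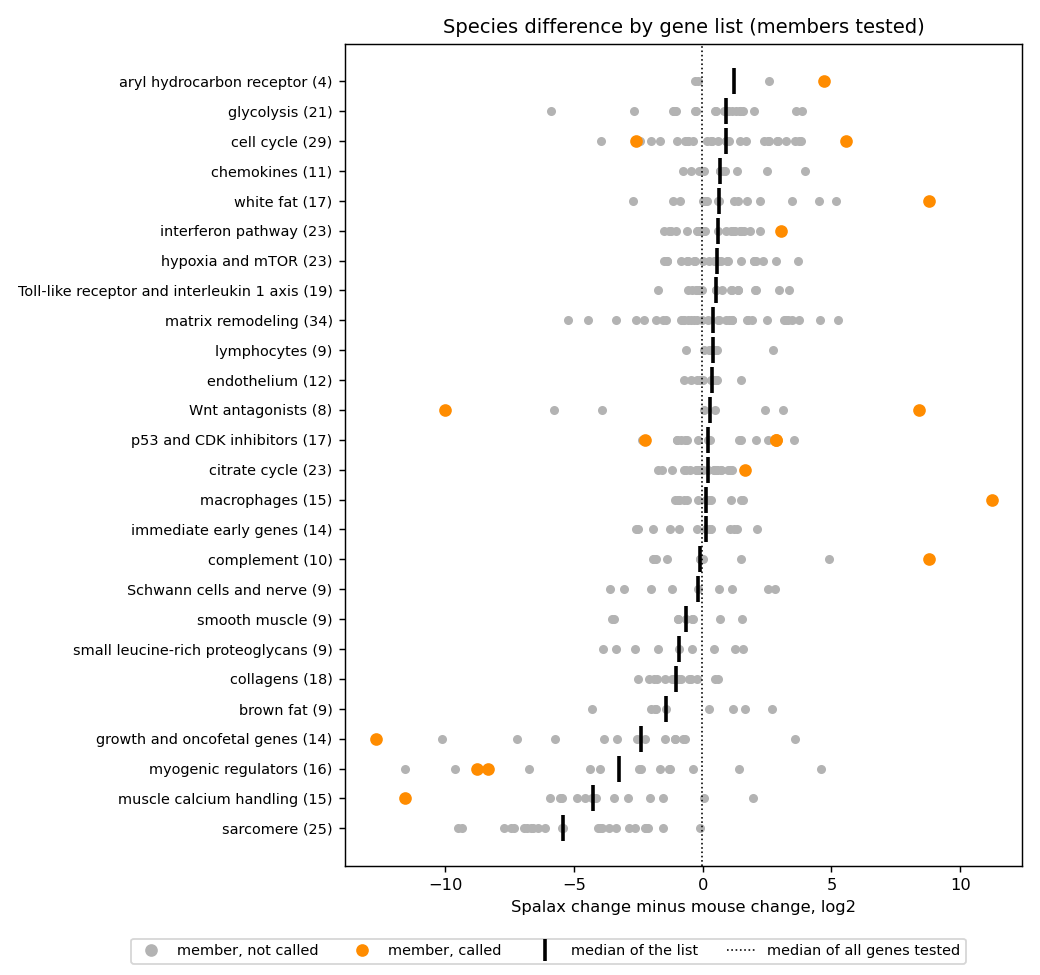
Species difference on the log2 scale (x axis) of the tested members of 26 gene lists, with called members in orange, the median of each list as a black bar and the median of all genes dotted. Sarcomere, muscle calcium handling and myogenic lists lie to the left, with medians of -5.41, -4.25 and -3.24, and most other lists are centered near 0.

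The study discussed 11 genes from its comparisons of these samples, Creb3l1 among them for granulomas against tumors, so their direction here is not independent evidence. All 11 were tested, 6 rose and 1 fell in Spalax, 3 rose in the mouse, and none had a called difference. The median difference was 1.67, with 8 above 0. Mtor, the kinase that couples nutrients to growth, had 4697 and 4049 in the Spalax UIS and 1168 and 1313 in the IS, and 1250.4, 1427 and 1870.1 in the UIS and 1062, 1259 and 986 in the IS of the mice. Its per-animal changes did not overlap, and the difference of -1.37 ± 0.34 had an adjusted p of 0.0608. Scaling by total reads, TMM scaling and DESeq2 gave adjusted p of 0.0247, 0.0398 and 0.00141, in a range of 0.00141 to 0.332 over all settings. Ddit4, an inhibitor of mTOR that is induced by stress, had 877 and 795 in the Spalax UIS and 4558 and 3626 in the IS, and 451, 1146 and 20759.6 in the UIS and 336, 641 and 2666 in the IS of the mice. Mouse 512 had by far the highest UIS value. The difference was 3.69 ± 2.01 (adjusted p = 0.328, and 0.0446 at the lowest over all settings). With the animal as a block the rise of Ddit4 in Spalax was called (adjusted p = 0.0311).

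Tlr4, the receptor for bacterial lipopolysaccharide, rose in Spalax from 179 and 252 to 1719 and 900.0, and had 185, 373 and 499.6 in the mouse UIS and 762, 533 and 233 in the IS. The mice 1019 and 1023 gained and mouse 512 lost Tlr4, and the difference of 2.06 ± 0.83 did not pass the test (adjusted p = 0.194). Ifngr1, a chain of the interferon gamma receptor, rose by 2.04 ± 0.55 in Spalax and had a mouse change of 0.20 ± 0.45, a difference of 1.84 ± 0.71 (adjusted p = 0.18). Irf1, an interferon-induced transcription factor, rose by 2.76 ± 0.70 in Spalax and by 1.58 ± 0.57 in the mouse. Ifnar2, a chain of the type I interferon receptor, had a difference of -0.19 ± 0.93 (adjusted p = 0.938). Mmp8, the neutrophil collagenase, went from 2.84 and 6.06 to 206 and 149 in Spalax and had 6.05, 453 and 28.8 in the mouse UIS and 20.7, 116 and 25.3 in the IS. Mouse 1023 had a UIS value far above the other 4 UIS libraries. The difference of 5.25 ± 2.15 had an adjusted p of 0.2, and of 0.00701 at the lowest over all settings. Creb3l1, a transcription factor of collagen-secreting cells, and Emilin2, a glycoprotein of elastic matrix, rose in both species, with differences of -0.53 ± 1.11 and 1.67 ± 1.49. Bmp7, a bone morphogenetic protein, had 2.17 ± 1.22, and adjusted p for these 3 were 0.837, 0.566 and 0.341.

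The genes reported here from an extracellular matrix network that the study drew from its own tumor comparisons gave no called difference either. For these too the direction is not independent evidence. Lum, lumican, a proteoglycan of collagen fibrils, had 2603 and 5189 in the Spalax UIS and 2843 and 1302 in the IS, and 1290.3, 465 and 74.9 in the UIS and 3316, 11282 and 198 in the IS of the mice. The groups overlapped within Spalax, and the difference was -3.38 ± 2.28 (adjusted p = 0.434). Sfrp1, a secreted Wnt antagonist, had 490.5 and 1009.9 in the UIS and 128 and 84.8 in the IS of Spalax and 87.1, 159.9 and 30.2 in the UIS and 175, 599 and 46.3 in the IS of the mice, with a difference of -3.91 ± 1.45 (adjusted p = 0.162). Each Spalax had less and each mouse had more Sfrp1 in the tumor. Fbln5, fibulin 5 of elastic fibers, fell in Spalax, with a change of -2.17 ± 0.73 and a difference of -2.61 ± 0.94 (adjusted p = 0.152). Aspn and Omd, the proteoglycans asporin and osteomodulin, had differences of -1.74 ± 0.93 and -3.88 ± 1.59 (adjusted p = 0.317 and 0.2). With the animal as a block, the falls of Sfrp1 and Omd in Spalax were called (adjusted p = 0.0163 and 0.0409). The rise of Lum in the mouse was then called too (adjusted p = 0.0343). The lowest adjusted p of the difference over all settings was 0.016 for Sfrp1 and 0.0269 for Omd. Igf2, an embryonic growth factor, had 424, 157 and 56293 in the mouse IS, so that the tumor of mouse 512 alone carried a high value. Its difference was -5.74 ± 2.88 (adjusted p = 0.287), and another gene of the same strand covers 62.8% of its exon bases. Cebpa and Jun, transcription factors of fat cell differentiation and of the growth factor response, had differences of 0.01 ± 1.84 and -0.23 ± 0.58 with adjusted p of 0.999 and 0.873, and that of Cebpa was below 0 with total-read or TMM scaling.

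Each called difference was also split into the gap between species in the UIS and that in the IS. The tables were normalised separately, so for this split the levels of both species were put on 1 common TMM scaling. They are given as a description, with no test. The gap between species was larger in the UIS than in the IS for 262 of the 438 genes (59.8%), against 54.3% of all genes. Among the positive differences this held for 152 of 223 (68.2%) and among the negative for 110 of 215 (51.2%). The median gap of the 438 was 1.90 log2 units in the UIS and 1.17 in the IS, against 0.86 and 0.76 over all genes. Tonsl, Pttg1 and Trnp1 were genes of the UIS kind, with Spalax minus mouse gaps of -6.61, -5.14 and 6.56 in the UIS and of -0.41, 0.59 and -1.25 in the IS. Clu, Perp, Ass1 and Camk2b were genes of the IS kind, with gaps of -0.55, -0.01, -0.63 and 0.07 in the UIS and of 7.44, 6.98, -7.63 and -6.89 in the IS. A gap in both sides with opposite signs was found for Gcnt4 (4.51 and -6.26), Brinp3 (3.36 and -7.51) and Apoc1 (-6.06 and 5.29).

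In the mouse gene models (GENCODE vM21 on GRCm38), Hp lies on chromosome 8 at 109575128 to 109579172 (minus strand), Perp on chromosome 10 at 18845020 to 18857073 (plus strand), Nqo1 on chromosome 8 at 107388225 to 107403206 (minus strand), Clu on chromosome 14 at 65968483 to 65981547 (plus strand), Capn6 on chromosome X at 143802231 to 143827414 (minus strand), Ass1 on chromosome 2 at 31470207 to 31520672 (plus strand) and Aox1 on chromosome 1 at 58029931 to 58106413 (plus strand), all as protein-coding genes, and the counts cover their exons. Some named genes share exon bases with a gene of the opposite strand, 21.9% for Atp2a1, 15.5% for Ckm, 10.8% for Pxmp2, 10.5% for Gcnt4 and 7.32% for Cacnb2. Whether strand was used in the counting was not given in the sources used here, so reads of such pairs may not be separable.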

How the data were processed

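RNA-Seq libraries of the 10 fibrosarcoma samples were analysed from 2 series tables, 1 for Spalax and 1 for the mouse. The authors trimmed reads with Trimmomatic, mapped them with TopHat to the Spalax genome and the mouse reference, and counted genes with HTSeq. The submitters' processing notes name TopHat 1.4.1, HTSeq and DESeq. The deposited values are a signal, namely counts divided by a size factor for each library, and all values came out as whole multiples of 1 read (tolerance 1e-06 of a read), worth 0.517 to 1.44. The Spalax table had 2387 names with a comma in place of a lower-case t. The letter was put back before symbols were matched, and 2308 of these names were then found in the mouse table, against 96 with the comma dropped.

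limma 3.58.1 (lmFit, eBayes with trend) in R 4.3.3 was fitted to log2(value + 1) with 4 groups, over genes of at least 10 in 2 Spalax and 3 mouse libraries, with Benjamini-Hochberg adjustment. Alternatives were the animal as a block, edgeR 4.0.16 and DESeq2 1.42.0 on recovered reads, other scalings, pseudocounts, filters and quality weights, and leaving out libraries and animals. Muscle lists were also summed without Tpm1 and Tpm2. The IS and UIS of an animal are paired by the labels. The deviations of paired libraries correlated at 0.02 in Spalax and at 0.09, 0.03 and 0.15 in the mice. Unpaired libraries of different mice correlated at -0.144 to 0.118. In Spalax the unpaired value was -0.02, which mirrors the paired one because there were 2 animals. The animals of a group are separate animals. Replicates differed by more than sampling noise (chi-square per degree of freedom of 37.4 to 441). The fit was tested on simulated data.

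Members and gene lists were chosen with earlier results of these data known. Named genes were the 10 largest differences of each sign called with and without the block, the 5 largest of each sign among all calls, called list members (at most 3 of each sign), the genes singled out by the study, the 5 largest shared rises and falls, and the 5 largest opposed changes of each kind. Some genes that this rule chose are not reported here. Counting intervals (95%, exact Clopper-Pearson) and floors of 3 reads cover counting error only. Gene places came from GENCODE vM21 on GRCm38 for 66 of 67 named genes. The other 15 libraries of the series were not used here.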

Additional observations from a re-analysis of the deposited data

Results flagged for a closer look

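The difference between the Spalax and the mouse response was tested for every gene, and 39 of the genes named here passed that test of the difference itself (limma, adjusted p of at most 0.05 over all genes, where 3.95% of genes passed). In each of the 39 the changes of the 2 Spalax lay on 1 side and those of the 3 mice on the other, as for 40.5% of all genes. This comes from the same values as the calls and adds no separate support. The values below are Spalax change minus mouse change on the log2 scale.

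Genes that rose in Spalax and fell in the mouse had differences of 8.04 for Ric3, 7.73 for Elmod1, 7.67 for Hp, 6.96 for Perp, 5.77 for Pttg1, 5.66 for Smpdl3a and 4.72 for Nqo1. Genes that fell in Spalax and rose in the mouse had -12.68 for Capn6, -10.73 for Brinp3, -10.56 for Gcnt4, -10.09 for Irx1, -9.27 for Fam189a1, -8.46 for Cacnb2, -7.74 for Trnp1, -6.91 for Ass1 and -2.24 for Zmat3. Genes that rose with a call in Spalax alone had 8.17 for Steap4, 8.04 for Clu, 6.22 for Tonsl, 3.04 for Jak2 and 2.87 for Cdkn2c. Genes that fell with a call in the mouse alone had 11.22 for Apoc1, 8.79 for Cfd, 8.38 for Wfdc1, 6.62 for Pxmp2, 6.24 for Hr and 2.83 for Phlda3. Genes that fell with a call in Spalax alone had -11.56 for Sln, -9.99 for Dkk2, -8.75 for Ankrd1, -8.33 for Chrna1, -7.63 for Sntb1 and -6.75 for Thbs4. Both species fell for Art3 (-6.84), Aox1 (-6.79), Camk2b (-6.70) and Ogdh (1.64), and both rose for Anln (5.55) and Kif20a (-2.60).

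The causes of these differences were not tested. The tumors of mice 1023 and 512, but not that of mouse 1019, held more sarcomere RNA than those of Spalax. The summed white fat markers of the uninjected muscle were higher in the mice, though in mouse 512 not every single marker was. Species, dose, age, time to the tumor and count table cannot be told apart in this design.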

How the results depend on the processing

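With the animal as a replicate block the species difference had 38 calls in place of 438, and the within-species counts stayed within 1.5 times of those reported. DESeq2 on recovered reads gave 1711, which held all 438 and left the adjusted p of 141 genes undefined, edgeR gave 391, and library quality weights gave 1054. Pseudocounts of 0.1 and 5 gave 412 and 449, no filter 577, a minimum of 50 gave 380, and a minimum of 10 in either species 618. Leaving out a single library gave 4 to 778 calls for the difference and 1693 to 5126 for the Spalax response. Without both libraries of an animal, the difference had 7 calls (Spalax 2230), 3 (Spalax 2240), 236 (mouse 1019), 1 (mouse 1023) and 663 (mouse 512), the Spalax response had 1152 without Spalax 2230 and 1474 without Spalax 2240, and the mouse response had 3070 without mouse 1023. Where 1 library of a group was left, it was assumed to vary like the other groups. Scaling by total reads moved the median change of all genes by 0.81 in Spalax and 1.07 in the mouse, and 4148 of 5323 Spalax calls and 6024 of 7283 mouse calls were then rises, in place of 1937 of 4119 and 2797 of 5523.

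The settings share most of their values, and in none of them did any of the 39 called named genes change sign. Their calls were lost for 18 with the block, 6 with edgeR, 4 with a pseudocount of 0.1, 2 with total-read scaling and 36 without the UIS of Spalax 2230, and 36 without that of Spalax 2240. Fitted sizes of low genes moved with the offset, to -10.42 (edgeR) and -4.56 (pseudocount 5) for Art3, 4.83 (pseudocount 5) for Elmod1 and -14.80 and -5.56 (pseudocounts 0.1 and 5) for Fam189a1. Among named genes without a call, 6 gained one with DESeq2 and 1 each with total-read scaling, TMM scaling and quality weights. Signs turned only among genes without a call. Bub1 became 1.5 with edgeR, 1.55 with DESeq2, 0.24 with a pseudocount of 5 and 0.0053 with weights, and Top2a 1.37 and 1.41 with edgeR and DESeq2. Cebpa became -0.26 with total-read and -0.039 with TMM scaling, Creb3l1 0.055 and Ifnar2 0.35 with weights, Melk -0.57 with a pseudocount of 0.1 and Sgol1 -0.30 with one of 5. Over fits without 1 library the differences that turned ran from -2.07 to 0.99 for Bub1, -1.26 to 1.27 for Cebpa, -1.19 to 0.041 for Creb3l1, -0.70 to 0.42 for Ifnar2, -0.75 to 0.30 for Jun, -1.11 to 1.96 for Melk, -3.58 to 0.024 for Mybpc2, -0.69 to 1.87 for Sgol1 and -2.92 to 0.58 for Top2a. Those that turned without both libraries of an animal were Bub1 0.26, Cebpa -0.059 (without 2240), Bub1 0.015, Cebpa -0.84, Jun 0.17, Mybpc2 0.50 (without 1023), Bub1 1.14, Creb3l1 0.41, Ifnar2 0.064, Top2a 0.64 (without 512), Emilin2 -0.071, Jun 0.31 (without 2230), Melk -1.21, Sgol1 -0.82 (without 1019).

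The causes of these shifts were not tested. With 2 and 3 animals a group, and 6.95 to 19.3 reads behind a value of 10, differences in low genes were estimated with wide intervals.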
